A study of Mus musculus with 12 samples.

Results

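Prss33, Prss41 and Prss32 are 3 neighbouring genes for trypsin-like serine proteases on mouse chromosome 17, and they were taken by symbol as 3 of the 32285 genes counted in single nuclei of the left hippocampus. They had been chosen by measured values, the counts per library, which differed between 3xTg-AD and WT mice at 6 months and not in the same way at 12 months, so their own genotype differences are described here and carry no test. The choice raised the question of whether the difference follows single libraries and the genes around the cluster, as an inherited stretch of chromosome would. The files hold counts and no sequence variants, so that such a stretch itself was not tested. There were 12 libraries, each from 1 female mouse, with 3 3xTg-AD and 3 WT littermates at 6 months and 3 of each genotype at 12 months. The 3xTg-AD line, B6;129-Tg(APPSwe,tauP301L)1Lfa, carries human APP with the Swedish mutation and human tau with P301L, both under the neuronal Thy1.2 promoter. The strain is held on a mixed background of B6 and 129 chromosomes, and no further treatment was given to either genotype. Replicates are named by the sample numbers of the labels, which run from 1 to 12 and are not shared between groups.

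Trypsin-like serine proteases cut proteins after basic residues and are made as inactive precursors. Mouse chromosome 17 holds a family of them, which includes the tryptases of mast cells (Tpsab1, Tpsb2), testisin (Prss21, of germ cells), marapsin (Prss27, of epithelia) and the implantation proteases of the uterus (Prss28, Prss29). Prss41 is known as a membrane-anchored protease of the testis, Prss32 as a tryptase-like protease, and the human counterpart of Prss33 as a protease of eosinophils. None of them is a known marker of a brain cell type.

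In the GENCODE vM21 annotation of GRCm38, Prss33 lies at chr17:23833347-23836056 on the minus strand, Prss41 at chr17:23836785-23844172 on the minus strand and Prss32 at chr17:23843855-23859779 on the plus strand. Prss33 and Prss41 are 728 bp apart. Prss41 and Prss32 start towards each other and overlap by 318 bp on opposite strands, through a longer transcript of Prss32. The start of the protein-coding transcript of Prss32 in RefSeq is 9616 bp from that of Prss41, and the starts of Prss33 and Prss41 are 8389 bp apart. An unnamed gene, Gm15947, lies inside Prss32 on the opposite strand (chr17:23853159-23858647) and had 13 UMIs over all libraries. Outside the span of the 3 genes, the nearest are Elob, 4210 bp before Prss33, and Prss21, 8276 bp after Prss32.

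The 300 bases around each start, 250 before and 50 after it, are shown because the 3 genes varied together over the libraries (RefSeq, GRCm38.p6, each on its gene's own strand at chr17:23835718-23836017, chr17:23844107-23844406 and chr17:23853522-23853821). Capitals mark the CG dinucleotides, where DNA can be methylated.
Prss33: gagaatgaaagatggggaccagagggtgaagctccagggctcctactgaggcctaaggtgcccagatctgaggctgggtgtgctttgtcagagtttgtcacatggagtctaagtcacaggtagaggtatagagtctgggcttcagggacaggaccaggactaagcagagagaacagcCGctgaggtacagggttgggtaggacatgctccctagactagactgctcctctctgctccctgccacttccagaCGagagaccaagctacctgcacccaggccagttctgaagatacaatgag
Prss41: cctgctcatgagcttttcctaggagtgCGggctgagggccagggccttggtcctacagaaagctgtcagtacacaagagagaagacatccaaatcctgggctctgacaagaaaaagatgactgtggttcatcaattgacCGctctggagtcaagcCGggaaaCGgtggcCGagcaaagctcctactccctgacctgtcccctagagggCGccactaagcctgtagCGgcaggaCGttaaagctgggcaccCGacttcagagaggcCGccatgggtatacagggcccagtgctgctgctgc
Prss32: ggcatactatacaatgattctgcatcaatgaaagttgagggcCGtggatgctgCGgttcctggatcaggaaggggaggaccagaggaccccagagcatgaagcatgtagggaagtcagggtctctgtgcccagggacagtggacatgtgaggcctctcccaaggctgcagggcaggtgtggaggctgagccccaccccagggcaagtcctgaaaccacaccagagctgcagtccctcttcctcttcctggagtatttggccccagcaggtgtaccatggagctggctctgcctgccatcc
Prss41 held 10 CG dinucleotides, and Prss33 and Prss32 held 2 each, beside a median of 7 over 32851 mouse promoters of the same length. Both strands were searched for short motifs. The TATA box letters TATAAA occur in 13.6% of all promoters and matched none of the 3 genes. The same held for the CCAAT box (letters CCAAT), which occurs in 37.4% of promoters. It held as well for the GC box, spelled GGGCGG and present in 35.7%, and for the short cyclic AMP response element, whose letters TGACG occur in 20.8%. The E box letters CANNTG, which occur in 72.3% of promoters, matched once in Prss33, once in Prss41 and 3 times in Prss32. The letters AGGTCA, a core that nuclear receptors bind and that occurs in 16.3% of promoters, matched once, 61 bases before the start of Prss41. A match describes the letters only.

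After filters on detected genes, mitochondrial share and complexity, 184956 of 185643 nuclei were retained, with 11352 to 19811 nuclei and 79155331 to 128303515 unique molecular identifiers (UMIs) per library. Levels are given as UMIs of a gene per 1000000 UMIs of the library or class (CPM) with exact Poisson 95% intervals, which cover counting error only. Over both ages, the mouse genes App, Mapt and Thy1 overlapped between the 6 3xTg-AD and the 6 WT libraries, so these counts do not check the labels of genotype. At 6 months alone, Thy1 did not overlap, with 39.2 to 44.4 CPM in WT and 45.5 to 54.2 CPM in 3xTg-AD libraries. This was so for 18.8% of the 22014 genes tested at that age. App and Mapt overlapped at 6 months, and Thy1 overlapped at 12 months. Of the retained nuclei, 28.8% were gated by their own marker genes as inhibitory neurons, 21.5% as excitatory neurons, 16.4% as oligodendrocytes and 10.9% as astrocytes, and 16.1% stayed ungated. Markers of hippocampal neurons (Prox1, Neurod6, Fibcd1, Spink8, Iyd) summed to 58.8 to 69.1 CPM in 6-month 3xTg-AD and 42.5 to 60.3 CPM in 6-month WT libraries, and to 39.6 to 77.7 CPM in 12-month 3xTg-AD and 76.2 to 97.8 CPM in 12-month WT libraries. Markers of striatal neurons (Drd1, Drd2, Adora2a, Rgs9), which the dissected tissue should lack, summed to 71.7 to 134 CPM in 6-month 3xTg-AD and 86.4 to 318 CPM in 6-month WT libraries, and to 75.3 to 236 CPM in 12-month 3xTg-AD and 41.3 to 57.7 CPM in 12-month WT libraries. The part of both lists in the results below was not tested. Of 181379 barcode sequences, 4216 occurred in more than 1 library, with 29 to 107 shared by a pair.

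At 6 months, all 3 genes were detected far more in 3xTg-AD than in WT libraries. Prss41 was at 0.339 CPM (35 UMIs), 0.417 CPM (43 UMIs) and 0.421 CPM (39 UMIs) in WT replicates 3, 7 and 11. It was at 4.84 CPM (506 UMIs), 4.54 CPM (459 UMIs) and 5.38 CPM (690 UMIs) in 3xTg-AD replicates 1, 5 and 9. The groups did not overlap, as was the case for 18.8% of the 22014 genes tested, a share that is given as background since the rule used this contrast. The means were 0.392 ± 0.046 CPM in WT and 4.92 ± 0.426 CPM in 3xTg-AD (SD, n = 3 each), a ratio of 12.5. Prss33 had 2, 5 and 8 UMIs in the WT libraries and 133, 92 and 147 UMIs in the 3xTg-AD libraries in the same order, with means of 0.051 ± 0.034 and 1.11 ± 0.184 CPM. Prss32 had 5, 4 and 8 UMIs against 69, 75 and 111 UMIs, with means of 0.058 ± 0.025 and 0.755 ± 0.103 CPM. Every 3xTg-AD library of this age was above every WT library for each of the 3 genes.

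At 12 months, the order of the genotypes was the other way round for Prss41, and 1 library stood apart. In WT replicates 4, 8 and 12, Prss41 was at 3.78 CPM (392 UMIs), 7.33 CPM (580 UMIs) and 4.92 CPM (430 UMIs). In 3xTg-AD replicates 2 and 10 it was at 2.33 CPM (240 UMIs) and 2.63 CPM (317 UMIs). In 3xTg-AD replicate 6 it was at 0.285 CPM (29 UMIs, interval 0.191 to 0.409 CPM), at the level of the WT libraries of 6 months. All 3 WT libraries were above all 3 3xTg-AD libraries, beside 20.3% of genes without overlap at this age. The means were 1.75 ± 1.28 CPM in 3xTg-AD and 5.35 ± 1.81 CPM in WT (SD, n = 3 each), and the ratio was -1.61 on the log2 scale, or -1.11 without 3xTg-AD replicate 6 and -2.03 without 3xTg-AD replicate 10. Prss33 showed 54, 4 and 52 UMIs in 3xTg-AD replicates 2, 6 and 10 and 54, 78 and 70 UMIs in WT replicates 4, 8 and 12. Prss32 showed 54, 6 and 30 UMIs in the 3xTg-AD libraries and 45, 47 and 45 UMIs in the WT libraries. Over all nuclei the genotypes overlapped in CPM for both genes, and replicate 6 was again far below the other 12-month libraries. Their ratios of 3xTg-AD to WT were -1.21 for Prss33 and -0.89 for Prss32 on the log2 scale, with -0.69 and -0.41 without replicate 6 and -1.71 and -1.74 without 3xTg-AD replicate 2.

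**Figure D1:**
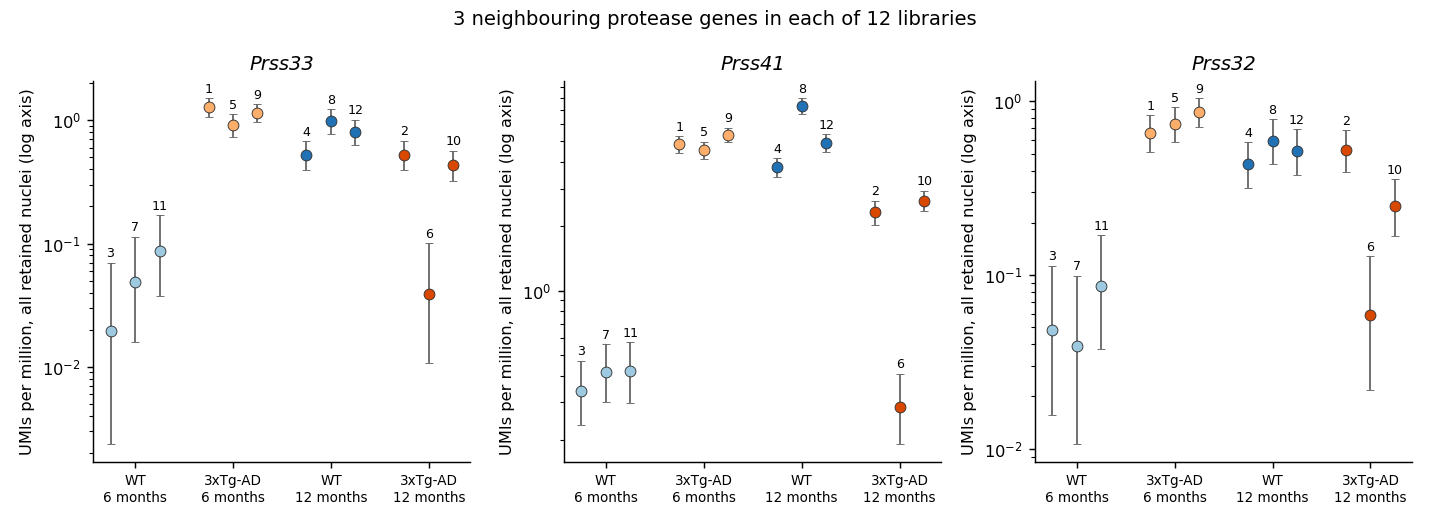
CPM of Prss33, Prss41 and Prss32 in all retained nuclei of each library (log axis, 1 panel per gene), with points labelled by replicate number and bars that give the exact Poisson 95% interval. The 3 WT libraries of 6 months and 3xTg-AD replicate 6 of 12 months lie lowest in every panel, and for Prss41 these 4 lie between 0.285 and 0.421 CPM while the other 8 lie between 2.33 and 7.33 CPM.

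With the libraries ordered by Prss41, the intervals of neighbours left breaks. These intervals leave out the spread between animals. The intervals of the 4 lowest (3xTg-AD replicate 6 of 12 months and WT replicates 3, 7 and 11 of 6 months) overlapped from neighbour to neighbour, and the highest of them did not reach the next library. The next 2 were 3xTg-AD replicates 2 and 10 of 12 months, whose intervals overlapped each other but not that of WT replicate 4 of 12 months above them. From WT replicate 4 up to 3xTg-AD replicate 9 of 6 months neighbouring intervals overlapped, and WT replicate 8 of 12 months was the highest, apart from the rest. The ends of that run did not overlap each other (3.42 to 4.18 and 4.98 to 5.79 CPM). Prss33 had 1 such break, above the same 4 libraries, with 0.086 CPM below it and 0.432 CPM above it. In Prss32, the same 4 libraries were the lowest, but no neighbouring intervals were apart.

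The 3 genes followed each other over the 12 libraries. The Pearson correlation of log2(CPM + 0.5), where 0.5 CPM was added to limit the weight of low counts, was 0.97 for Prss33 and Prss41, 0.97 for Prss33 and Prss32 and 0.94 for Prss41 and Prss32. The 12 points share their libraries and the choice of the genes, so these values are a description. Prss41 was the most abundant in each library, with 3.80 to 17.5 UMIs per UMI of Prss33 and 4.44 to 12.3 per UMI of Prss32. The extremes of the first ratio came from WT replicate 3 of 6 months, with 2 UMIs of Prss33, and 3xTg-AD replicate 1 of 6 months.

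The same libraries were low in every large class of nuclei. In excitatory neurons, Prss41 was at 0.233 to 0.358 CPM in the WT libraries of 6 months and at 3.56 to 4.10 CPM in the 3xTg-AD libraries of 6 months. At 12 months it was at 3.15 to 6.17 CPM in WT, at 1.55 and 1.97 CPM in 3xTg-AD replicates 2 and 10 and at 0.201 CPM (6 UMIs) in replicate 6. In inhibitory neurons, it was at 0.305 to 0.442 CPM in WT and 4.81 to 6.30 CPM in 3xTg-AD at 6 months, and at 5.37 to 8.43 CPM in WT, 2.85 and 3.18 CPM in 3xTg-AD replicates 2 and 10 and 0.165 CPM (7 UMIs) in replicate 6 at 12 months. Both classes of neurons thus had the same 4 libraries lowest and 3xTg-AD replicates 2 and 10 of 12 months next, as over all nuclei, in which neurons hold most UMIs. In excitatory neurons of 12 months, Prss33 was at 0.621 to 0.750 CPM in WT and 0.033 to 0.504 CPM in 3xTg-AD libraries. Prss32 was there at 0.433 to 0.590 and 0.033 to 0.252 CPM, so both had the order of Prss41 in this class. In inhibitory neurons of 12 months, the genotypes overlapped for both genes.

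In astrocytes, oligodendrocytes and oligodendrocyte precursor cells, the same 4 libraries were the lowest for Prss41. Their counts were too low for the intervals to part them from the next library. In oligodendrocytes, WT replicate 8 of 12 months was the highest and apart from the rest (10.3 CPM, interval 7.94 to 13.2 CPM). Microglia had 0 UMIs of Prss41 in both groups of 6 months. Astrocytes had 1, 0 and 1 UMIs of Prss41 in the WT libraries of 6 months, 20, 15 and 20 UMIs in the 3xTg-AD libraries of 6 months, and 0 UMIs in 3xTg-AD replicate 6 of 12 months, where up to 3 UMIs cannot be told from 0. Oligodendrocytes had 1, 5 and 2 UMIs in WT and 20, 19 and 24 UMIs in 3xTg-AD at 6 months. Oligodendrocyte precursor cells (OPCs) had 3, 0 and 2 UMIs in WT and 20, 21 and 28 UMIs in 3xTg-AD at 6 months. In each of these 3 glial classes, all 3xTg-AD libraries of 6 months were above all WT libraries in CPM, beside 14.6%, 15% and 13.7% of genes without overlap in astrocytes, oligodendrocytes and OPCs. At 12 months the genotypes overlapped in astrocytes and OPCs and did not overlap in oligodendrocytes, where WT libraries were at 3.14 to 10.3 CPM and 3xTg-AD libraries at 0.839 to 2.52 CPM (12.7% of genes were without overlap there).

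The choroid plexus, the epithelium that secretes cerebrospinal fluid, did not show this pattern, on few counts. In WT replicate 7 of 6 months its nuclei had 10 UMIs of Prss41, or 7.33 CPM (interval 3.51 to 13.5 CPM), while the excitatory neurons of that library were at 0.233 CPM (0.101 to 0.459 CPM). In 3xTg-AD replicate 9 of 6 months, choroid plexus nuclei had 13 UMIs, or 8.58 CPM (4.57 to 14.7 CPM), and in 3xTg-AD replicate 6 of 12 months 3 UMIs, or 4.92 CPM (1.02 to 14.4 CPM). WT replicate 11 of 6 months, low in neurons, had 1 UMI in 96 nuclei. WT replicates 4 and 12 of 12 months, high in neurons, had 0 UMIs in 97 and 2 UMIs in 107 nuclei. Libraries that were low in neurons were therefore not separable from the others in this class, whose 1058 nuclei held 33 UMIs of Prss41 in all. The nuclei of the class were unevenly spread, with 1 to 285 per library.

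**Figure D2:**
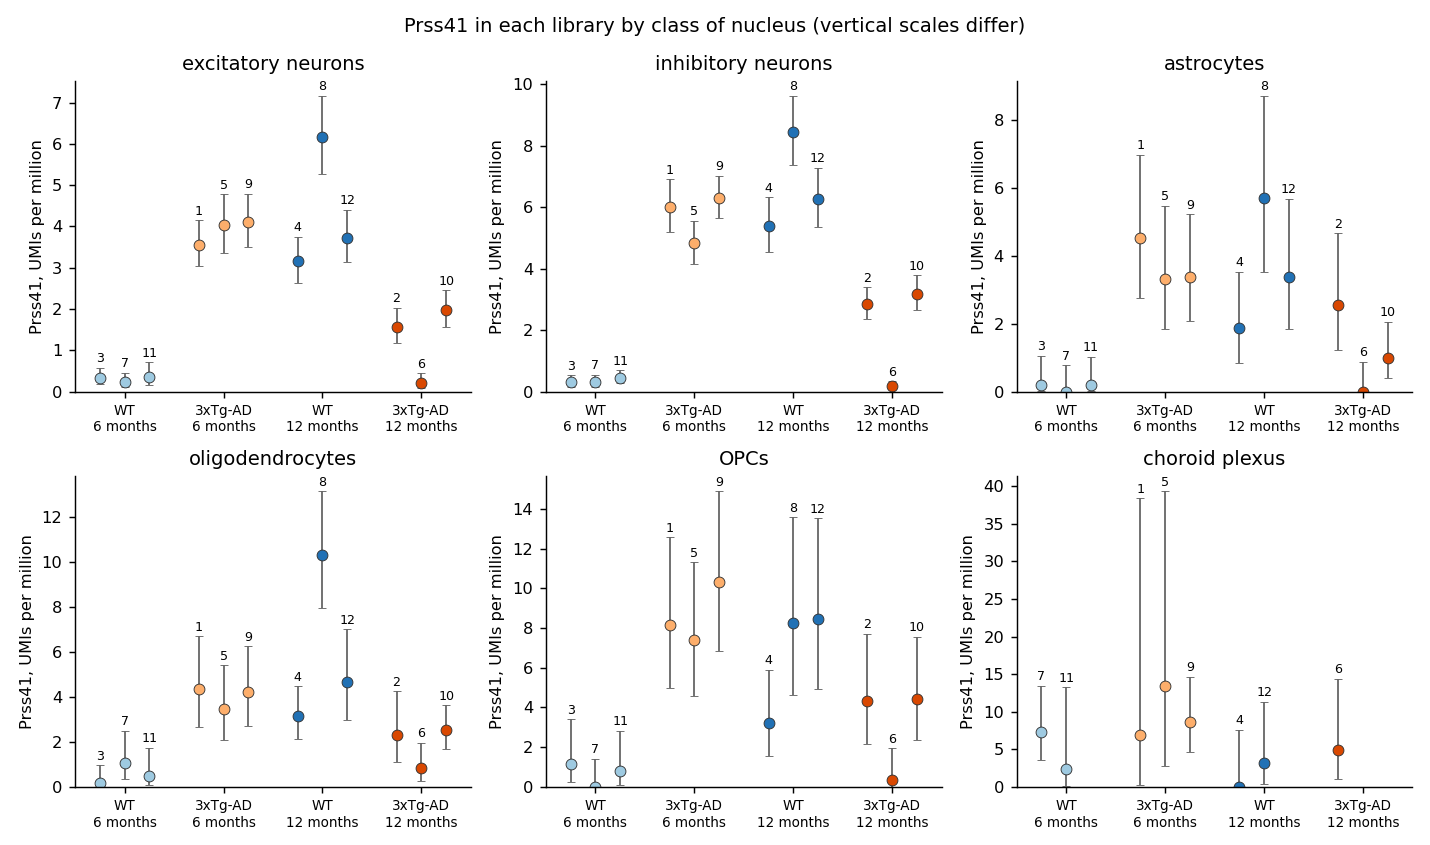
CPM of Prss41 in each library in 6 classes of nuclei (vertical scales differ, points labelled by replicate number, bars the exact Poisson 95% interval). Choroid plexus is shown only for the libraries with over 100000 UMIs in that class, where WT replicate 7 of 6 months is at 7.33 CPM, against 0.233 CPM in excitatory neurons. In the other 5 panels the WT libraries of 6 months and 3xTg-AD replicate 6 of 12 months lie lowest.

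Between classes of nuclei, differences were taken within each library. They were tested with a two-sided exact permutation test over the 12 libraries (9 tests, Benjamini-Hochberg adjustment). The 0.5 CPM added draws differences at low levels towards 0, so their sizes rest mostly on libraries where the genes were high. These include 6-month 3xTg-AD libraries, by which the genes were picked. Prss32 had means of 0.405 (excitatory) and 1.31 CPM (inhibitory neurons) there, and 0.033 and 0.082 CPM in 6-month WT libraries. Prss41 was higher in neurons (3.04 ± 2.39 CPM) than in astrocytes (2.17 ± 1.93 CPM, SD, n = 12) in 11 of 12 libraries, by 0.45 on the log2(CPM + 0.5) scale (exact permutation test, adjusted p = 0.0033). It was lower in excitatory than in inhibitory neurons in 10 of 12 libraries, by a log2 difference of -0.39 (exact permutation test, adjusted p = 0.0035). Its difference between neurons and oligodendrocytes was -0.10 ± 0.48 (SD over libraries) and did not pass the test (exact permutation test, adjusted p = 0.47). Prss33 and Prss32 were by contrast higher in neurons than in oligodendrocytes, by 0.54 in 11 libraries and by 0.61 in 10 libraries (exact permutation test, adjusted p = 0.0029 and 0.0138). Both were also higher in neurons than in astrocytes, by 0.56 and 0.65 (exact permutation test, adjusted p = 0.0029 for each). Over all 12 libraries, oligodendrocytes held 16 UMIs of Prss33 and 7 of Prss32, and astrocytes 12 and 5. Single libraries were thus near the floor in these 2 glial classes, and how often neurons were higher depends on depth. Prss32 was lower in excitatory than in inhibitory neurons by -0.43 (exact permutation test, adjusted p = 0.0051), and Prss33 by -0.14 (exact permutation test, adjusted p = 0.0286), a call that was lost when 0.1 CPM was added in place of 0.5 (adjusted p = 0.0692). It was also lost without any of 6 libraries in turn (3xTg-AD replicates 1, 2 and 10 and WT replicates 8, 11 and 12, adjusted p = 0.0505 to 0.0571).

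The proportion of the 3 genes was taken from UMIs summed over libraries. Prss33 made up 6.45% of its sum with Prss41 in oligodendrocytes (exact Clopper-Pearson 95% interval 3.73 to 10.3%), and Prss32 made up 2.93% of its own sum with Prss41 there (1.19 to 5.94%). By group these shares ranged from 0 to 11.3% for Prss33 and from 0.847 to 20% for Prss32, on 8 to 123 UMIs of each pair of genes. In neurons the proportions differed between groups of libraries too, and between libraries of 1 group. Prss32 made up 18.7% in inhibitory neurons (16.2 to 21.4%) and 9.60% in excitatory neurons (7.16 to 12.5%) of the 6-month 3xTg-AD libraries. In the 12-month WT libraries it made up 9.20% in inhibitory (6.99 to 11.8%) and 10.998% in excitatory neurons (8.37 to 14.1%), with intervals that overlap. In the other groups the share was higher in inhibitory than in excitatory neurons, at 16.5% and 12.2% in 12-month 3xTg-AD and at 18.9% and 9.68% in 6-month WT libraries, again with overlapping intervals. Between single 12-month 3xTg-AD libraries, the share in inhibitory neurons ran from 8.70 to 41.7%. Prss33 made up 23.0% in excitatory and 17.4% in inhibitory neurons of 6-month 3xTg-AD libraries, and 14.0% and 13.2% in 12-month WT libraries. It made up 21.7% and 17.3% in 12-month 3xTg-AD libraries. The order was reversed in 6-month WT libraries, at 3.45% (1 UMI) and 8.51% (4 UMIs). These intervals cover counting error only and leave out the spread between libraries. Free RNA in the suspension of a library adds its genes in 1 proportion to every class, and its part in these levels was not tested. Microglia held 6 UMIs of Prss41 in 1924 nuclei (1.61 CPM, interval 0.592 to 3.51 CPM) and none of Prss33 or Prss32, and endothelial cells held 0 UMIs of any of the 3 in 623 nuclei, which allows up to 3.05 CPM at 3 UMIs (exact interval 0 to 3.75 CPM). Prss41 was at 3.06 CPM over all nuclei, inside both exact intervals, so its level in these small classes could not be separated from the rest at this depth.

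Markers of the blood cells known for such proteases were measured in the same libraries, and their part in the levels of the 3 genes was not tested. Of 7 mast cell markers, Mcpt4 and Cma1 had 0 UMIs in all libraries, Tpsb2 had 4 UMIs, Fcer1a 3, Cpa3 204 and Hdc 2611 (0.745 to 3.11 CPM). Most of the sum of the list came from Kit, at 10.2 to 15.6 CPM, which neurons also express. That sum was at 14.1 to 16.7 CPM in 6-month 3xTg-AD and 12.2 to 18.7 CPM in 6-month WT libraries, and at 12.4 to 13.7 and 12.9 to 15.1 CPM at 12 months. The 8 markers of neutrophils and eosinophils summed to 0.086 to 0.195 CPM in 6-month 3xTg-AD and 0.184 to 0.310 CPM in 6-month WT libraries. At 12 months they summed to 0.107 to 0.366 CPM in 3xTg-AD and 0.252 to 0.328 CPM in WT libraries. Choroid plexus markers overlapped between the genotypes at both ages, with 57.0 to 212 CPM in WT and 74.3 to 266 CPM in 3xTg-AD at 6 months, and 64.1 to 194 CPM in WT and 49.0 to 117 CPM in 3xTg-AD at 12 months.

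Of the 10 other trypsin-like proteases of the same stretch, Prss27 and Prss30 had the highest counts. Prss30, which lies 0.13 Mb from the cluster's centre, was at 0.503, 0.728 and 0.626 CPM in WT and 0.306, 0.267 and 0.320 CPM in 3xTg-AD at 6 months. At 12 months it was at 0.357, 0.379 and 0.367 CPM in WT and 0.649, 0.580 and 0.391 CPM in 3xTg-AD. The genotypes did not overlap at either age, beside 18.8% of genes tested at 6 and 20.3% at 12 months. Their order was the opposite of that of Prss41, but neither difference passed the test (log2 -0.999 and 0.62, edgeR quasi-likelihood adjusted p = 0.108 and 0.321). Prss27, at 0.20 Mb, was at 0.475 to 0.582 CPM in WT and 0.6503 to 0.880 CPM in 3xTg-AD at 6 months (log2 0.69, edgeR adjusted p = 0.262). At 12 months the genotypes overlapped for Prss27, with 0.550 to 0.998 CPM in WT and 0.383 to 0.706 CPM in 3xTg-AD. Prss22 had 128 UMIs and Tpsg1 84 UMIs over all libraries, Prss21, the neighbour of Prss32, had 2 UMIs, Prss28, Prss29 and Tpsab1 had 2 UMIs each, Tpsb2 had 4 and Prss34 had 0. Prss21 was thus near 0 in the libraries with high and with low Prss32 alike.

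Genes that act with serine proteases elsewhere in the genome were counted from lists. A gene was called where its log2 fold change exceeded 0.2 in size and its edgeR adjusted p was below 0.05. At 6 months, 0 of 16 other serine proteases made in brain, 0 of 13 inhibitors and 0 of 3 tested protease-activated receptors, which proteases such as thrombin switch on, were called over all nuclei, beside 1.27% of all genes. DESeq2 also called 0 of each list, and 1 gene of each had an unadjusted edgeR p under 0.05, beside 11.1% of all genes. Plat, tissue plasminogen activator, was higher in 3xTg-AD oligodendrocytes (log2 0.76, SE 0.145, edgeR adjusted p = 0.0464) and was not called by DESeq2. At 12 months, 2 of the 13 inhibitors were called over all nuclei (also by DESeq2), beside 1.32% of all genes, and edgeR and DESeq2 called 0 of the 16 proteases and 0 of the 3 receptors (1 and 0 at an unadjusted p under 0.05). In single classes of this age, edgeR called 0 of these proteases, beside 0.225% (microglia) to 4.61% (inhibitory neurons) of all genes. DESeq2 called 2 of them in excitatory neurons and 1 each in astrocytes and oligodendrocytes. Serpina3n, an inhibitor made by reactive glia, was lower in 3xTg-AD over all nuclei (log2 -2.18, SE 0.229, edgeR adjusted p = 0.0053), and Serpine2, which inhibits thrombin and plasminogen activators, was higher (log2 0.40, SE 0.075, edgeR adjusted p = 0.0489). By class, edgeR called Serpina3n in excitatory neurons, inhibitory neurons and oligodendrocytes, and Serpine2 in inhibitory neurons. It called no inhibitor in astrocytes, OPCs or microglia, and DESeq2 called 1 in astrocytes. Over all nuclei, the median log2 difference of the inhibitors was 0.01 at 6 and -0.01 at 12 months, beside -0.01 and 0.00 over all genes tested.

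The genes around the cluster differed between the genotypes at 6 months more often than genes elsewhere. Windows were measured from the outer ends of the cluster to the nearest end of a gene. Of 162 genes within 2 Mb, 128 were tested and 11 were called over all nuclei, which is 8.59% beside 1.27% (280 of 22014 genes). Of the 11, 10 were lower in 3xTg-AD and 1 was higher, beside 0.954% of all genes called lower and 0.318% called higher. The genotypes did not overlap for 58 of the 128 (45.3%, beside 18.8%), and the median absolute log2 fold change was 0.21 beside 0.12. Within 250 kb, 3 of 23 tested genes were called (Pkmyt1, Gm16275 and Gm50071), all lower. The genotypes did not overlap for 12 of these 23, and their median absolute log2 fold change was 0.29. Excitatory neurons called 10 of 113 neighbours (8.85%, beside 1.19%) and inhibitory neurons 10 of 117 (8.55%, beside 0.963%). Astrocytes called 2 of 91 (beside 0.587%), oligodendrocytes 3 of 92 (beside 0.726%), OPCs 2 of 88 (beside 0.33%) and microglia 0 of 14 (edgeR, beside 0.0229%, and 0 by DESeq2), with 2 at an unadjusted p under 0.05, beside 5.08% of genes. These 6 libraries are those by which the 3 proteases were picked, so the counts are not independent of that choice. Without 3xTg-AD replicate 5 or 9, the count over all nuclei was 6 or 5, and it was 5 without either in excitatory neurons. In inhibitory neurons it was 3, 1 and 1 without 3xTg-AD replicates 1, 5 and 9 and 5 without WT replicate 7.

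At 12 months the neighbours did not stand out. By edgeR, 0 of 131 tested genes within 2 Mb were called over all nuclei, beside 1.32% of all genes, with 10 at an unadjusted p under 0.05 (beside 16.6% of all genes) and 0 by DESeq2. The genotypes did not overlap for 11 of them (8.40%, beside 20.3%). Inhibitory neurons called 1 of 116 (beside 4.61%), Sox8, a transcription factor of the glial lineage, which was higher in 3xTg-AD (log2 1.91, SE 0.278, edgeR adjusted p = 0.0140), and edgeR and DESeq2 called 0 in the other classes, where 0 (OPCs) to 7 (excitatory neurons) had an unadjusted edgeR p under 0.05. In these classes the edgeR calls over all genes made up 0.981% in excitatory neurons, 0.467% in astrocytes, 0.642% in oligodendrocytes, 0.295% in OPCs and 0.225% in microglia. Without 3xTg-AD replicate 10 of 12 months, 13 were called in inhibitory neurons and 1 over all nuclei, and without 3xTg-AD replicate 2 or 6 or WT replicate 4 or 12, 0 were called in inhibitory neurons.

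**Figure D3:**
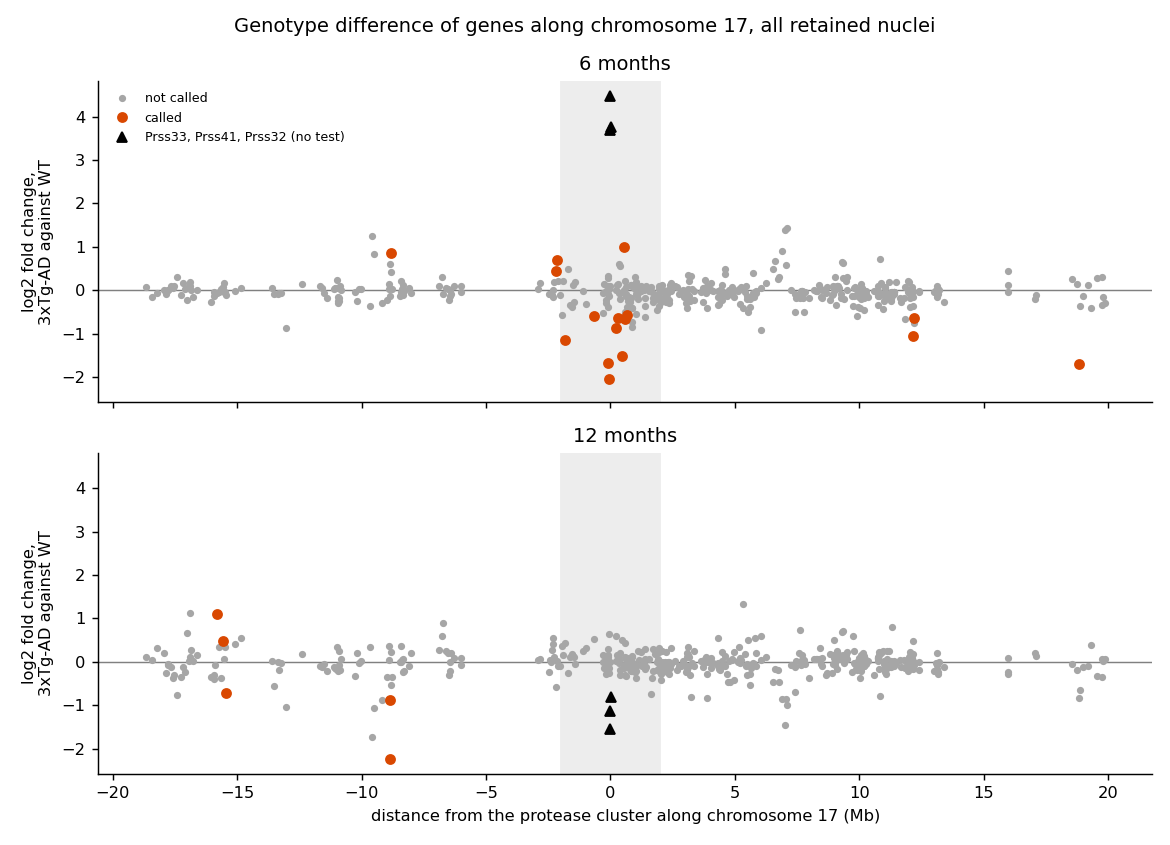
Log2 fold change of 3xTg-AD against WT over all retained nuclei at 6 months (top) and 12 months (bottom) for genes of chromosome 17 with a mean of at least 1 CPM, by distance from the protease cluster in Mb. Orange points were called by edgeR, black triangles are the 3 proteases, and the grey band covers 2 Mb on either side, where 11 tested genes were called at 6 months (10 of them with a mean of at least 1 CPM) and 0 at 12 months.

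Zfp943, a zinc finger gene 1.83 Mb before the cluster, varied over the libraries in the direction opposite to the proteases. In the WT libraries of 6 months it was at 37.5, 37.9 and 38.1 CPM (replicates 3, 7, 11), and in the 3xTg-AD libraries of that age at 16.1, 16.7 and 16.9 CPM (replicates 1, 5, 9). At 12 months it was at 25.2, 18.3 and 22.9 CPM in WT replicates 4, 8 and 12, and at 26.4, 35.0 and 24.4 CPM in 3xTg-AD replicates 2, 6 and 10. Replicate 6, the low library for Prss41, was the highest of its age, and WT replicate 8, the highest for Prss41, was the lowest. At 6 months Zfp943 was lower in 3xTg-AD in 5 of 6 classes tested, with log2 fold changes of -0.89 in oligodendrocytes to -1.26 in inhibitory neurons and -1.14 (SE 0.061) over all nuclei (edgeR adjusted p = 0.000181). It was not called at 12 months (log2 0.43, edgeR adjusted p = 0.290). The difference between the ages was 1.56 on the log2 scale (SE 0.207, edgeR adjusted p = 0.0173), and it was the single gene of 132 within 2 Mb to pass this test of interaction, beside 0.0704% of all genes, while 42 of the 132 had an unadjusted p under 0.05, beside 10.6% of all genes. This count was 0 without 3xTg-AD replicate 1, 5 or 9 of 6 months or WT replicate 12 of 12 months, and 12 without 3xTg-AD replicate 10 of 12 months.

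Nearer to the cluster, further genes had the same reversed order at 6 months, and only in part at 12 months. Abca17, an ABC transporter gene, was at 4.76, 4.15 and 4.42 CPM in WT and 1.51, 1.49 and 1.49 CPM in 3xTg-AD at 6 months (log2 -1.51, SE 0.130, edgeR adjusted p = 0.00154). At 12 months it was at 2.81, 1.53 and 2.57 CPM in WT and 3.03, 4.12 and 2.21 CPM in 3xTg-AD, so that replicate 6 again lay with the WT libraries of 6 months. Gm16275, an unnamed gene 0.07 Mb before the cluster, was at 1.98, 1.51 and 1.75 CPM in WT and 0.392, 0.435 and 0.405 CPM in 3xTg-AD at 6 months (log2 -2.03, SE 0.186, edgeR adjusted p = 0.00205). It was at 1.00, 0.442 and 1.26 CPM in WT and 0.862, 1.95 and 1.28 CPM in 3xTg-AD at 12 months. Zfp40, another zinc finger gene, was at 35.4 to 38.6 CPM in WT and 22.5 to 24.1 CPM in 3xTg-AD at 6 months (log2 -0.59, SE 0.069, edgeR adjusted p = 0.00655), and at 19.5 to 30.7 and 32.4 to 43.0 CPM at 12 months. For each of these genes, 3xTg-AD replicate 6 was the highest library of 12 months and WT replicate 8 the lowest. The genotypes overlapped at 12 months for Abca17 and Gm16275 and did not overlap for Zfp40, beside 20.3% of genes without overlap.

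The remaining calls concerned genes of unlike known roles. Pkmyt1, a kinase that holds cells before mitosis, was lower in 3xTg-AD at 6 months (log2 -1.67, SE 0.222, edgeR adjusted p = 0.0122), as was Rnps1, of the exon junction complex (log2 -0.66, SE 0.058, edgeR adjusted p = 0.00163). Caskin1, a scaffold of synapses, was lower over all nuclei (log2 -0.57, SE 0.084, edgeR adjusted p = 0.0188) and in 4 of 5 classes tested. Amdhd2, an enzyme of amino sugar breakdown (log2 -0.63), Rpl3l, a ribosomal protein known from muscle (log2 -1.45), and Gm50071, an unnamed gene (log2 -0.86), complete the 10 genes called lower over all nuclei (edgeR adjusted p = 0.0149, 0.0109 and 0.0491). D330041H03Rik, a noncoding gene whose start faces that of Rnps1, was the only neighbour called higher over all nuclei (log2 0.99, SE 0.121, edgeR adjusted p = 0.00816), and Ccnf, cyclin F, was called higher in oligodendrocytes (log2 2.80, SE 0.315, edgeR adjusted p = 0.00201). Ccnf was called in 1 of 4 classes tested and not over all nuclei (log2 -0.05, edgeR adjusted p = 0.937). Single genes next to the cluster were near 0, such as Elob (log2 0.10, edgeR adjusted p = 0.852) and Srrm2, a splicing factor (log2 0.04, edgeR adjusted p = 0.914). Of the 35 genes within 250 kb, 17 had a mean of at least 1 CPM, and 2 of these had an absolute correlation of at least 0.8 with Prss41 (Gm16275, -0.86, and Gm50071, -0.91).

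**Figure D4:**
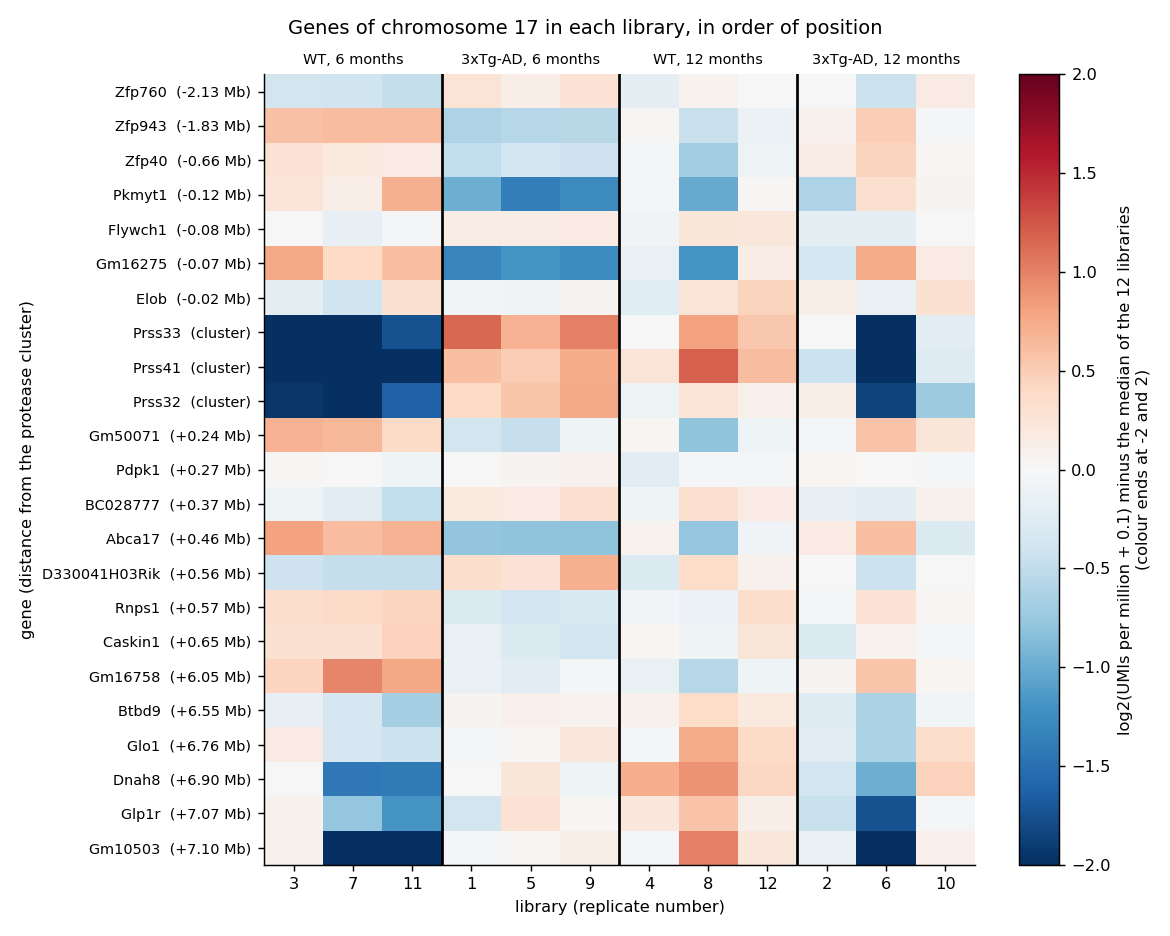
Log2(CPM + 0.1) of 23 genes of chromosome 17 in each library, less the gene's median over the 12 libraries, in order of position with the distance from the cluster in Mb. Genes were partly chosen after their values were seen. 3xTg-AD replicate 6 of 12 months has colours near those of the WT libraries of 6 months for most genes from Zfp760 to Gm10503, and WT replicate 3 of 6 months departs from the other 2 WT libraries of its age in the lowest rows.

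Over all genes with a mean of at least 1 CPM, 53 of 16314 (0.325%) had an absolute Pearson correlation of at least 0.8 with Prss41 over the 12 libraries. Within 2 Mb these were 8 of 104 (7.69%), within 10 Mb 14 of 311 (4.50%), on the rest of chromosome 17 0 of 467, and on other chromosomes 39 of 15536 (0.251%). The points share depth and libraries, and the counts are a description. The 10 genes most alike were 1810013L24Rik (0.92, chromosome 16), Btbd9 (0.89), Zfp760 (0.88), Htr1a (0.87, chromosome 13), D330041H03Rik (0.86), Fip1l1 (0.86, chromosome 5), Arsj (0.85, chromosome 3), Gm48779 (0.85, chromosome 12), BC028777 (0.85) and Snx13 (0.84, chromosome 12). Of these, 4 lie on chromosome 17, from 2.13 Mb before to 6.55 Mb after the cluster. The correlation was negative for 31 of the 53 genes, and for 6 of the 8 within 2 Mb. The most negative were Zfp943 (-0.93), Gm16758 (-0.92, 6.05 Mb after the cluster), Abca17 (-0.92), Gm50071 (-0.91) and Cenph (-0.91, chromosome 13). For Prss33 and Prss32, D330041H03Rik (0.93 and 0.91) and Zfp760 (0.92 and 0.88) were the genes most alike, followed by 1810013L24Rik (0.91), Arsj (0.86) and Col4a1 (0.86, chromosome 8) for Prss33 and by Col4a1 (0.84), Rgs7 (0.83, chromosome 1) and Epc2 (0.82, chromosome 2) for Prss32. Outside the cluster, the spread of the most alike gene was far smaller than that of Prss41: 1810013L24Rik, on chromosome 16, ranged from 49.8 to 56.3 CPM.

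Farther along the chromosome, 1 library left the pattern. Btbd9, a gene linked to restless legs syndrome 6.55 Mb after the cluster, was at 336 and 268 CPM in WT replicates 7 and 11 of 6 months but at 378 CPM in WT replicate 3. In 3xTg-AD replicate 6 of 12 months it was at 273 CPM, and in the other 8 libraries at 355 to 547 CPM. Gm10503, which overlaps the gene of the glucagon-like peptide 1 receptor (Glp1r) on the opposite strand 7.10 Mb after the cluster, was singled out after its values were seen. It was at 0.427 and 0.281 CPM in WT replicates 7 and 11 of 6 months and at 0.285 CPM in 3xTg-AD replicate 6 of 12 months, and at 7.17 CPM in WT replicate 3 of 6 months. The other 8 libraries were at 6.06 to 13.7 CPM. WT replicate 3 thus lay with the low libraries at the proteases and with the high libraries at Gm10503. Glp1r itself was at 2.77 and 2.05 CPM in WT replicates 7 and 11, at 5.08 CPM in WT replicate 3 and at 1.37 CPM in 3xTg-AD replicate 6.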

How the data were processed

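Nuclei of the left hippocampus were profiled in 12 libraries with the 10x Genomics 3′ kit v3, which reads transcript ends by strand. The authors aligned reads to GRCm38 (mm10) with Cell Ranger 6.1.1 and deposited a raw UMI count for each gene in each nucleus, made before their removal of ambient RNA and filters on nuclei. Whether intronic reads were counted is not given in the sources used here.

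Nuclei were retained with 500 to 10000 genes, a mitochondrial share of UMIs of at most 5%, and more than 0.8 for log10 genes divided by log10 UMIs. The authors' removal of ambient RNA was not repeated, and doublets were not removed here. A nucleus was gated to a non-neuronal class by at least 3 markers of the class and at most 1 UMI of transmitter genes. Its share of markers had to be at least 2 times that of any other non-neuronal class. General neuronal markers did not enter this comparison, and OPC nuclei had a median of 3 to 4 of them per library. A stricter gate held 883 OPC nuclei in place of 6251. Neurons needed 4 of the general neuronal markers, at a share no lower than that of any non-neuronal class, and were split by transmitter genes. Counts were summed per library and class, and genotypes were compared per age in 3 against 3 libraries by edgeR 4.0.16 and its quasi-likelihood F test (TMM, filterByExpr, R 4.3.3) and the Benjamini-Hochberg method. DESeq2 1.42.0 was an alternative. All p are two-sided. The tests were checked on simulated counts. For edgeR these covered all nuclei and excitatory neurons, with strong changes and the same spread set for every gene. Weaker changes, glial classes and libraries that depart from their group were not checked. Levels of classes were compared by exact permutation over libraries, whose smallest p is 0.000488. Each library is 1 mouse, so the spread is between animals.

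Positions are from GENCODE vM21, found for 32158 of 32285 genes, and distances printed for single genes are between gene centres and the centre of the cluster. The windows of 250 kb and 2 Mb run from the outer ends of the cluster to the nearest end of a gene, so a gene inside a window can have its centre beyond it. Named are the 3 proteases, the proteases and other genes near them, the called neighbours (at most 5 per class and age by adjusted p), the 10 genes most alike to Prss41 and 5 for each of the others, and lists of serine proteases, inhibitors and receptors. The 5 genes with the most negative correlation with Prss41 are named as well. The genes, the lists and the question were chosen with earlier results of these data known, and the region markers and the interaction of genotype and age were added after the data were seen. A further allele of the line and 1 marker gene are not reported here.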

Additional observations from a re-analysis of the deposited data

Results flagged for a closer look

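Prss41 was flagged because all 3xTg-AD libraries lay above all WT libraries at 6 months, by 4.53 CPM on average, and all lay below them at 12 months, by -3.60 CPM. The difference between the ages was not tested, since the gene was picked for this pattern. The same opposite order, with the signs exchanged, was found for Zfp40, with -13.2 CPM at 6 and 10.2 CPM at 12 months, and for Prss30, with -0.322 and 0.172 CPM. For these 2 genes the interaction of genotype and age did not pass (log2 1.12 and 1.61, edgeR adjusted p = 0.123 and 0.133). Of all genes tested, 18.8% were without overlap at 6 and 20.3% at 12 months. Genes without overlap in opposite order at the 2 ages were not counted. Zfp943 was flagged because its interaction of 1.56 on the log2 scale passed the test (edgeR adjusted p = 0.0173).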

How the results depend on the processing

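No paired analysis was possible because the groups share no replicate numbers in the labels. Values of the 3 proteases and the class differences other than that of Prss33 between neuron types (-0.24 with 0.1 CPM added, past its threshold with 2 CPM) kept their direction and call under the alternatives tried (TMM scale, no filters on nuclei, a stricter gate, other pseudocounts).

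DESeq2 called 24 neighbours over all nuclei, 16 in excitatory and 17 in inhibitory neurons at 6 months, and 1 in OPCs. Without the filter on low counts, 6, 11 and 7 were called in astrocytes, oligodendrocytes and OPCs at 6 months, and 1 gene in the 5 Mb at the cluster at 12 months. One fit of 12 libraries called 1 in oligodendrocytes and in OPCs at 6 months, and in it Zfp40 was not called over all nuclei (log2 -0.59, edgeR adjusted p = 0.127). A window of 1 Mb left 1 call in astrocytes and in OPCs. In inhibitory neurons at 12 months, 4 were called by DESeq2, 3 in 1 fit of 12 libraries, 0 within 1 Mb and 3 within 5 Mb.

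With each library left out in turn, neighbours called at 6 months ranged from 5 to 13 over all nuclei, 5 to 12 in excitatory and 1 to 10 in inhibitory neurons, 1 to 2 in astrocytes, 1 to 3 in oligodendrocytes and 0 to 4 in OPCs. At 12 months they ranged from 0 to 1 over all nuclei and in excitatory neurons and from 0 to 13 in inhibitory neurons, and for the interaction from 0 to 12. The difference of Prss33 between neuron types ranged from -0.166 to -0.0886. No result changed direction. Depth limits Prss33 and Prss32 in glia and all 3 genes in small classes.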
